A study of Homo sapiens with 8 samples.

Results

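The 10 genes described here encode the machinery of the G1 phase of the cell cycle: the D-type cyclins CCND1 and CCND3, the E-type cyclins CCNE1 and CCNE2, the kinases CDK2, CDK4 and CDK6, and the kinase inhibitors CDKN1A, CDKN1B and CDKN2B. They were chosen by symbol, with earlier results of these data known, and matched to Ensembl identifiers. All 10 were found among the 58302 genes of the count table. All 10 also had enough counts to be tested, among 16256 tested genes.

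The cells were 3 derivatives of PATU-8902 (A-TU-8902 in the cell line label), a human pancreatic adenocarcinoma line, profiled by RNA sequencing in 8 libraries. The resistant libraries (3) came from a cell line, titled 304_1.1, that was established in culture from a single resistant shYAP/WWTR1 tumour grown under the skin of a nude mouse. It was kept under doxycycline, carries the hairpins against YAP1 and WWTR1 (the genes of YAP and TAZ), and is labelled resistant to the TEAD inhibitor GNE-7883. The shYAP+TAZ libraries (3) came from parental cells with the same hairpins, and the shNTC libraries (2) from parental cells with a control hairpin, both labelled sensitive to GNE-7883. The sources used here do not say if doxycycline was added to these parental cells. Every description field says xenograft, whereas the extraction protocol describes cell lines lysed on the plate.

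Nothing in the labels ties the libraries of a group to separate cultures, so the p-values below measure the spread between these libraries, which may be technical. Resistance, passage through the mouse and any difference in doxycycline cannot be told apart in this design, nor can the effect of the hairpins and other differences between the shYAP+TAZ and shNTC lines. Library totals ran from 17521154 to 22629727 counts, and log2 CPM of libraries of 1 group correlated across genes at r of 0.994 or more. YAP1 averaged 102 CPM in resistant, 156 CPM in shYAP+TAZ and 382 CPM in shNTC libraries. WWTR1 averaged 71.1, 50.2 and 126 CPM in the same order, so both targets were lower in the 2 hairpin lines than in shNTC. All 8 epithelial markers fixed for the label, among them KRT19 and EPCAM, had counts in every group. Their summed level was 6420 to 6930 CPM in resistant, 5310 to 5530 CPM in shYAP+TAZ and 4300 to 4630 CPM in shNTC libraries. Not every marker followed the sum. MUC1 had 174 to 196 CPM in resistant, 532 to 565 CPM in shYAP+TAZ, and 432 and 366 CPM in shNTC libraries. EPCAM had 780 to 803 CPM in shYAP+TAZ, and 829 and 858 CPM in shNTC libraries. The defining markers PTPRC of leukocytes and COL1A2 of fibroblasts had at most 0.112 and 0.154 CPM in any library. The summed level of 6 fibroblast markers was 12.4 to 13.3 CPM in resistant, 6.14 to 7.18 CPM in shYAP+TAZ and 1.90 to 3.08 CPM in shNTC libraries, and that of 6 leukocyte markers was 8.69 to 9.81, 2.58 to 3.51 and 1.90 to 2.28 CPM in the same order. The 5 endothelial markers summed to 4.37 to 5.85 CPM in resistant, 9.36 to 11.4 CPM in shYAP+TAZ and 1.58 to 2.00 CPM in shNTC libraries, with KDR at 0 throughout, and the 4 acinar markers to at most 0.616 CPM. A single gene made most of the leukocyte sum in every library (LAPTM5, 8.49 to 9.55 CPM in resistant libraries) and of the fibroblast sum (COL1A1, 11.2 to 12.2 CPM in resistant libraries). VWF made most of the endothelial sum in shYAP+TAZ libraries, at 8.29 CPM or more. The part of these low signals in the results was not tested.

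In G1, D-type cyclins bind CDK4 or CDK6 and begin the phosphorylation of the retinoblastoma protein RB. E-type cyclins with CDK2 complete it, which frees E2F factors to switch on the genes of DNA replication. INK4 inhibitors such as p15 (CDKN2B) block CDK4 and CDK6, while the Cip/Kip inhibitors p21 (CDKN1A) and p27 (CDKN1B) block CDK2 complexes. In pancreatic cancer this control is often disturbed at the INK4 locus on chromosome 9p21.

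The 10 genes did not move as a block. Against shNTC, the shYAP+TAZ line had more RNA of both D-type cyclins, CDK6, CCNE1, CDKN1A and CDKN2B, and less of CCNE2, CDK2 and CDKN1B. In the resistant line the D-type cyclins were lower than in shYAP+TAZ and were not told apart from shNTC, whereas CCNE1 and CDKN1A were higher again and CCNE2 lower again. CDK6 stayed near its shYAP+TAZ level on the high side and CDKN1B on the low side.

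A gene was called when its Benjamini-Hochberg adjusted p in edgeR's quasi-likelihood test, fitted on all genes, was under 0.05. In shYAP+TAZ against shNTC 6 of the 10 were called higher and 3 lower, where 30.3% of all tested genes were called higher, 30.4% lower and 60.7% in all. For resistant against shYAP+TAZ 3 were called higher and 5 lower, against 31.0% and 31.4% of all tested genes and 62.4% in all. For resistant against shNTC 4 were called higher and 4 lower, against 30.1% and 32.6% and 62.7% in all. With about 6 in 10 genes called everywhere, the call itself marks no special behaviour of these genes, and the sizes below carry more of the description. The median absolute log2 fold change of the 10 was 0.96 in shYAP+TAZ against shNTC, where that of all tested genes was 0.41. It was 0.69 in resistant against shYAP+TAZ, where that of all tested genes was 0.37, and 0.68 in resistant against shNTC, where it was 0.43. The 10 were chosen with earlier results of these data known, so these medians are a description and no test of the genes. All 25 calls came with CPM values that did not overlap between the groups, and the 5 differences not called overlapped. Such separation was common: it held for 71.6% of all tested genes in shYAP+TAZ against shNTC (35.8% higher, 35.9% lower), 67.3% in resistant against shYAP+TAZ (33.4% higher, 33.8% lower) and 72.4% in resistant against shNTC (35.2% higher, 37.2% lower). The 3 comparisons share libraries, so they are not independent of each other.

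**Figure D1:**
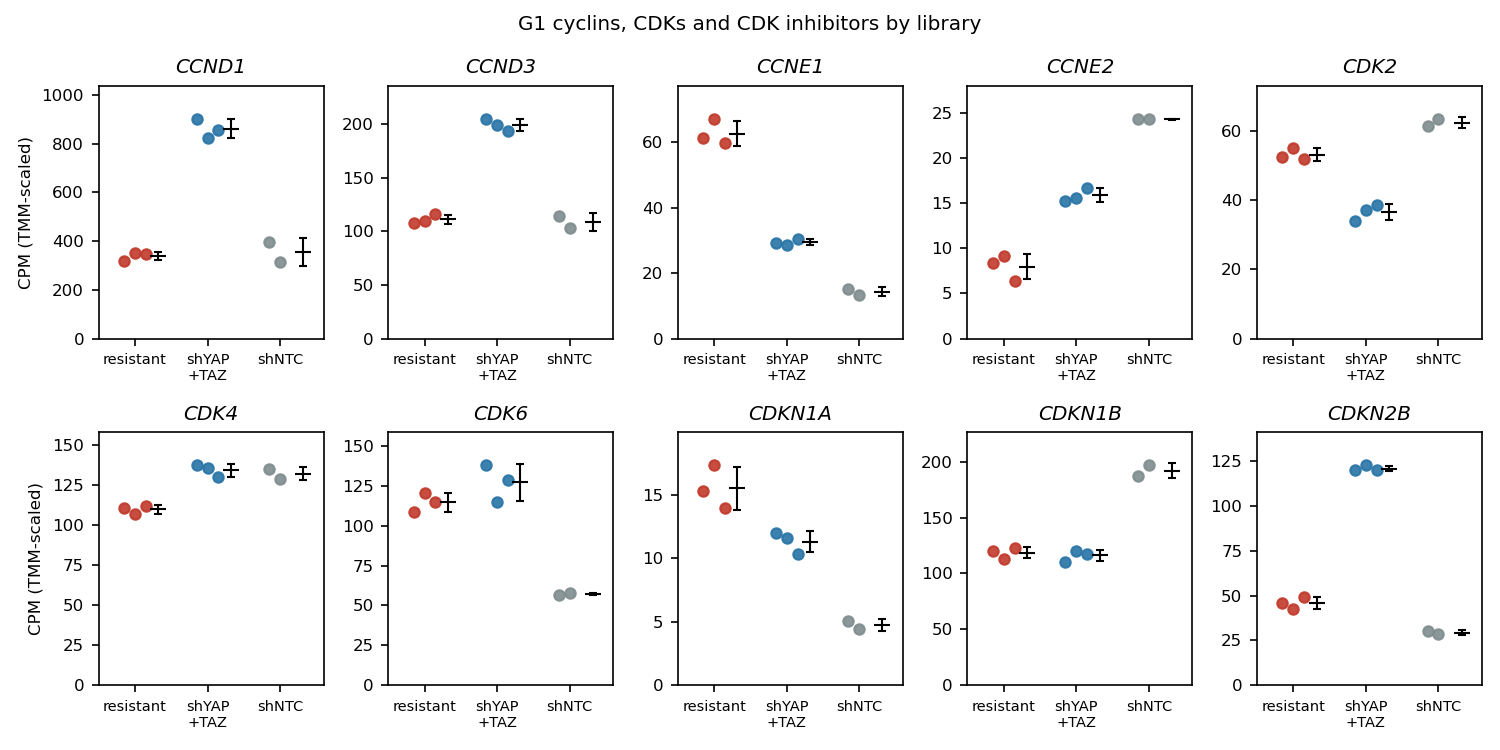
Level of each of the 10 genes in CPM (vertical axis, linear from 0) in the resistant (3), shYAP+TAZ (3) and shNTC (2) libraries; points are libraries, and the bar beside them is the mean ± SD. The D-type cyclins and CDKN2B peak in shYAP+TAZ, CCNE1 and CDKN1A are highest in resistant libraries, and CCNE2 is highest in shNTC.

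CCND1 (cyclin D1, ENSG00000110092, chromosome 11, 69641087 to 69654474 in GRCh38 by GENCODE 29) is the D-type cyclin most often induced by growth factor signalling. It had 320, 350 and 347 CPM in the resistant libraries, 902, 825 and 858 CPM in the shYAP+TAZ libraries, and 398 and 315 CPM in the shNTC libraries. Every shYAP+TAZ library thus lay above every other library, and the resistant values fell inside the range of the 2 shNTC values. Because RNA was taken from whole cultures, more cells in a phase that uses a gene and more RNA per cell cannot be told apart for any result here. CCND1 was higher in shYAP+TAZ than in shNTC by 1.28 ± 0.08 on the log2 scale (SE, adjusted p = 2.41e-11). The difference between resistant and shYAP+TAZ libraries was -1.34 ± 0.07 (adjusted p = 1.12e-12). Resistant and shNTC libraries were not told apart (-0.07 ± 0.08, adjusted p = 0.457). That last value rests on the mean of the 2 shNTC libraries, which differed more for CCND1 (coefficient of variation 16.5%) than for any other of the 10 genes. Without shNTC replicate 2 the difference was -0.24 (adjusted p = 0.00898), and without shNTC replicate 1 it was 0.13 (adjusted p = 0.152).

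CCND3 (cyclin D3, ENSG00000112576, chromosome 6, 41934933 to 42050357), a D-type cyclin with the same kinase partners, followed CCND1 at a lower level. It had 108, 110 and 116 CPM in resistant, 205, 199 and 194 CPM in shYAP+TAZ, and 115 and 103 CPM in shNTC libraries. The shYAP+TAZ libraries again stood apart from all others, while resistant and shNTC libraries overlapped. Its log2 fold change was 0.87 ± 0.07 in shYAP+TAZ against shNTC (adjusted p = 3.09e-10), -0.84 ± 0.06 in resistant against shYAP+TAZ (adjusted p = 6.94e-11) and 0.03 ± 0.06 in resistant against shNTC (adjusted p = 0.678). Of all pairs among the 10 genes, CCND1 and CCND3 had the most alike centred log2 CPM profiles over the 8 libraries, with a root mean square distance of 0.24.

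CCND2 (cyclin D2), the D-type cyclin outside the 10, went the other way in shYAP+TAZ against shNTC. In resistant against shYAP+TAZ it was lower, as CCND1 and CCND3 were. It averaged 0.759 ± 0.205 CPM in resistant (SD, n = 3), 2.70 ± 0.357 CPM in shYAP+TAZ (SD, n = 3) and 32.6 ± 3.20 CPM in shNTC libraries (SD, n = 2). Its log2 fold change was -3.60 ± 0.12 in shYAP+TAZ against shNTC (adjusted p = 1.35e-15) and -1.81 ± 0.23 in resistant against shYAP+TAZ (adjusted p = 6.13e-07). On the RPKM scale, which corrects for gene length, CCND2 averaged 0.119 in resistant, 0.413 in shYAP+TAZ and 4.97 in shNTC libraries, so it was a small part of the D-type cyclin RNA in each line.

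CCND1 and CCND3 together held 102 to 109.5 RPKM in resistant, 235 to 253 RPKM in shYAP+TAZ and 96.9 to 117 RPKM in shNTC libraries. CCND1 made up 72.6% to 74.1% of this sum in resistant, 78.8% to 79.9% in shYAP+TAZ and 73.2% and 75.6% in shNTC libraries. Its share was therefore above that of both other lines in each shYAP+TAZ library. The log2 RPKM ratio of CCND1 to CCND3 was 1.95 ± 0.05 in shYAP+TAZ (SD, n = 3) and 1.54 ± 0.13 in shNTC (SD, n = 2). For this and 11 further ratio comparisons an exact two-sided permutation test over libraries was used, which cannot go below p = 0.2 with 3 against 2 and p = 0.1 with 3 against 3. No ratio could therefore pass 0.05, and the lowest value adjusted over the 12 was 0.24.

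For CCND3, RefSeq on GRCh38.p14 gives promoter windows at 3 starts, from 250 bases before to 50 bases after each. The middle one, chr6:41941759-41942058 on the minus strand, held the letters of a TEAD motif (GGAATG, searched on both strands) and is shown 5′ to 3′ with that match in capitals, since the inhibitor is directed at TEAD factors, the DNA-binding partners of YAP and TAZ.
CCND3 promoter: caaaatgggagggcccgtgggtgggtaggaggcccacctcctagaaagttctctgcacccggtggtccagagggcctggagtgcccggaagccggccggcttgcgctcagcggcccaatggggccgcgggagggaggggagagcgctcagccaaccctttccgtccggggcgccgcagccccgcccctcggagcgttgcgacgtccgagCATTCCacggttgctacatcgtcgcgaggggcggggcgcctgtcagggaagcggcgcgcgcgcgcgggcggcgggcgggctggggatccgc
The match begins 41 bases before the start, and 14.0% of the 35116 RefSeq promoters hold these letters. A match is a run of letters and no measurement of binding. Promoter windows were found for 7 of the 10 genes (CCND3, CCNE1, CDK4, CDK6, CDKN1A, CDKN1B and CDKN2B), 10 windows in all, and the TEAD letters occurred in 2 of these windows.

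CDK4 (ENSG00000135446, chromosome 12, 57747727 to 57756013) and CDK6 (ENSG00000105810, chromosome 7, 92604921 to 92836594), the kinases that D-type cyclins activate, behaved differently from each other. CDK4 had 111, 107 and 112 CPM in resistant, 137, 135 and 130 CPM in shYAP+TAZ, and 135 and 129 CPM in shNTC libraries. It was the flattest of the 10 genes, with resistant libraries under all others and shYAP+TAZ and shNTC libraries overlapping. CDK4 had a log2 fold change of -0.29 ± 0.05 in resistant against shYAP+TAZ (adjusted p = 9.39e-05), -0.26 ± 0.06 in resistant against shNTC (adjusted p = 0.000694) and 0.03 ± 0.06 in shYAP+TAZ against shNTC (adjusted p = 0.737).

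CDK6 had 108, 121 and 115 CPM in resistant, 138, 115 and 129 CPM in shYAP+TAZ, and 56.5 and 57.5 CPM in shNTC libraries. Both hairpin-carrying lines were thus above shNTC in all 6 libraries, and they overlapped with each other. CDK6 was higher in shYAP+TAZ than in shNTC by 1.16 ± 0.08 on the log2 scale (adjusted p = 5.18e-11) and in resistant than in shNTC by 1.01 ± 0.08 (adjusted p = 4.13e-10). Resistant against shYAP+TAZ lay at the threshold (-0.15 ± 0.06, adjusted p = 0.0516). Of 18 alternative settings for that comparison 5 called CDK6 lower, with adjusted p from 0.0135 to 0.28 over all 18. Of 13 tested genes within 1 Mb of CDK6, none rose as much as CDK6 against shNTC in either line. Their median log2 fold change was -0.46 in resistant against shNTC and -0.30 in shYAP+TAZ against shNTC.

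Per length, CDK4 stayed the main kinase of the pair. It made up 83.3% to 85.2% of the summed CDK4 and CDK6 RPKM in resistant, 84.9% to 86.9% in shYAP+TAZ, and 93.1% and 92.7% in shNTC libraries. The linear ratio of CDK4 to CDK6 was 4.99 to 5.76 in resistant, 5.62 to 6.65 in shYAP+TAZ and 12.7 to 13.5 in shNTC libraries. The sum itself was 62.8 to 64.2 RPKM in resistant, 73.0 to 76.9 RPKM in shYAP+TAZ and 66.5 to 68.5 RPKM in shNTC libraries.

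CCNE1 (cyclin E1, ENSG00000105173, chromosome 19, 29811898 to 29824308), the activating partner of CDK2, was the gene of the 10 with the largest difference between the resistant and the control line. It had 61.1, 67.1 and 59.7 CPM in resistant, 29.1, 28.7 and 30.5 CPM in shYAP+TAZ, and 15.3 and 13.3 CPM in shNTC libraries. The 3 lines formed 3 separate steps with no overlap. The log2 fold change was 1.05 ± 0.09 in shYAP+TAZ against shNTC (adjusted p = 2.47e-09), 1.09 ± 0.07 in resistant against shYAP+TAZ (adjusted p = 1.92e-11) and 2.14 ± 0.09 in resistant against shNTC (adjusted p = 1.56e-14), a 4.39-fold difference. Within 1 Mb of CCNE1 6 genes were tested, and none moved as far as CCNE1 in any comparison. Against shNTC, 5 of them in the resistant line were called higher and their log2 fold changes ran from -0.49 to 0.62.

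The CCNE1 promoter window (chr19:29811741-29812040, plus strand, GRCh38.p14) is shown because CCNE1 rose at both steps. It held no match to the TEAD letters, to TGANTCA (AP-1), to TTTNNCGC (E2F) or to CAGACA (SMAD), all searched on both strands. It held 7 GC boxes (GGGCGG on either strand), which are in capitals and which 45.0% of all RefSeq promoters hold at least once.
CCNE1 promoter: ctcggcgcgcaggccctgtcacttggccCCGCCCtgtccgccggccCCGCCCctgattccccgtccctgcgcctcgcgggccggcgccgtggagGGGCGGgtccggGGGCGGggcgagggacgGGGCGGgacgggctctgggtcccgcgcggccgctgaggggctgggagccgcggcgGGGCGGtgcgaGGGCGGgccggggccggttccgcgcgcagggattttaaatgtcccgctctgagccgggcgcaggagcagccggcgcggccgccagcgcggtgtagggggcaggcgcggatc
None of the 10 windows held the AP-1, E2F or SMAD letters, which occurred in 7.71%, 6.89% and 16.9% of all RefSeq promoters. The absence of these exact letters says nothing about whether such factors act on the genes.

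CCNE2 (cyclin E2, ENSG00000175305, chromosome 8, 94879770 to 94896678), the other activator of CDK2, ran the opposite way to CCNE1. It had 8.32, 9.12 and 6.41 CPM in resistant, 15.3, 15.6 and 16.7 CPM in shYAP+TAZ, and 24.3 and 24.3 CPM in shNTC libraries. Again the lines formed 3 steps without overlap, this time with shNTC on top. CCNE2 had a log2 fold change of -0.61 ± 0.10 in shYAP+TAZ against shNTC (adjusted p = 1.75e-05), -1.003 ± 0.10 in resistant against shYAP+TAZ (adjusted p = 4.67e-08) and -1.62 ± 0.11 in resistant against shNTC (adjusted p = 5.39e-11). The genes around CCNE2 moved with it: of 14 tested genes within 1 Mb, 8 were called lower and 1 higher in shYAP+TAZ against shNTC (median log2 fold change -0.40), and 6 fell at least as far as CCNE2. Resistant against shNTC had 11 called lower and 1 higher (median -0.86), and 2 of the 14 fell at least as far as CCNE2. The part of this regional shift in the CCNE2 result was not tested.

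The E-type cyclin RNA therefore changed in make-up as well as in amount. CCNE1 was 92.4% to 93.9% of the summed RPKM of CCNE1 and CCNE2 in resistant, 75.1% to 75.9% in shYAP+TAZ, and 50.9% and 47.5% in shNTC libraries. The ratio of CCNE1 to CCNE2 was 12.1 to 15.4 in resistant, 3.01 to 3.15 in shYAP+TAZ, and 1.04 and 0.906 in shNTC libraries. This separation without overlap had the smallest p that the exact permutation test allows in each comparison (0.1 in resistant against shYAP+TAZ and 0.2 in the other two). The sum was 30.8 to 35.6 RPKM in resistant, 18.2 to 19.4 RPKM in shYAP+TAZ, and 14.2 and 13.4 RPKM in shNTC libraries, so the rise of CCNE1 outweighed the fall of CCNE2.

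**Figure D2:**
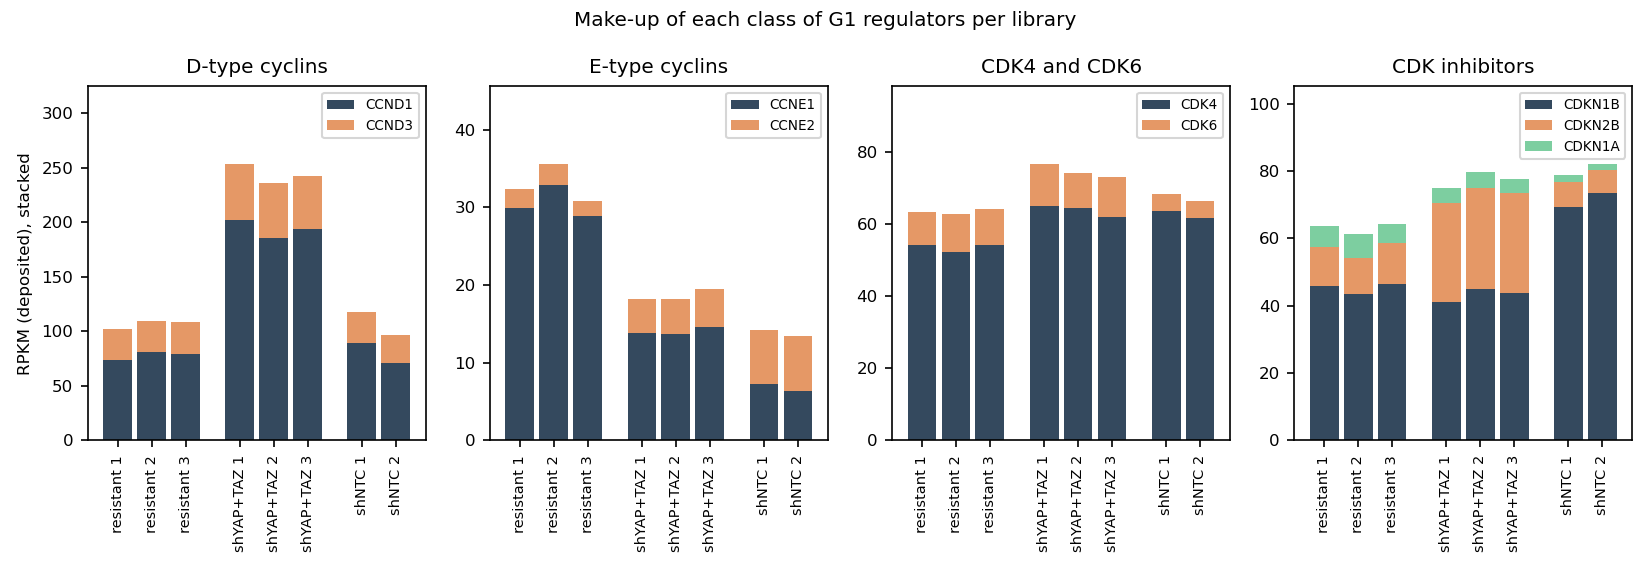
Deposited RPKM (vertical axis, linear from 0) of the genes of each class, stacked per library, with resistant, shYAP+TAZ and shNTC libraries from left to right. CCND1 dominates the D-type cyclins in all libraries; CCNE1 makes up 92.4% to 93.9% of E-type cyclin RNA in resistant libraries, against 50.9% and 47.5% in shNTC.

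CDK2 (ENSG00000123374, chromosome 12, 55966769 to 55972784), the kinase of the E-type cyclins, did not follow CCNE1. It had 52.6, 55.2 and 51.8 CPM in resistant, 34.1, 37.1 and 38.7 CPM in shYAP+TAZ, and 61.4 and 63.5 CPM in shNTC libraries. It was lowest in shYAP+TAZ and closer to shNTC in the resistant line, with no overlap between any of the 3 lines. CDK2 had a log2 fold change of -0.77 ± 0.07 in shYAP+TAZ against shNTC (adjusted p = 6.83e-09), 0.54 ± 0.06 in resistant against shYAP+TAZ (adjusted p = 3.56e-07) and -0.23 ± 0.07 in resistant against shNTC (adjusted p = 0.00639). CDK2 overlaps PMEL on the opposite strand, which had 246 to 271 counts in resistant, 56 to 77 in shYAP+TAZ and 78 to 95 in shNTC libraries. The library kit does not mark strand, so reads of an overlapping pair cannot be told apart where the genes share sequence. The same holds for CCND1 with LTO1, CCNE2 with INTS8 and NDUFAF6, CDK4 with TSPAN31 and MARCH9, and CDKN2B with CDKN2B-AS1.

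CDKN1A (p21, ENSG00000124762, chromosome 6, 36676460 to 36687339), an inhibitor of CDK2 complexes and a classic p53 target, rose in the same order as CCNE1 from a low level. It had 15.4, 17.4 and 14.0 CPM in resistant, 12.01, 11.6 and 10.4 CPM in shYAP+TAZ, and 5.07 and 4.41 CPM in shNTC libraries. The 3 lines did not overlap. CDKN1A had a log2 fold change of 1.26 ± 0.13 in shYAP+TAZ against shNTC (adjusted p = 5.6e-08), 0.45 ± 0.10 in resistant against shYAP+TAZ (adjusted p = 0.000373) and 1.72 ± 0.13 in resistant against shNTC (adjusted p = 3.03e-10). With 89 and 95 counts in the shNTC libraries it was the least counted of the 10 genes in that line.

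The other p53 target genes were mixed. Of 19 tested p53 targets outside the 10, 5 were called higher and 12 lower in shYAP+TAZ against shNTC (median log2 fold change -0.53). MDM2, the ubiquitin ligase that p53 induces against itself, was lower in shYAP+TAZ than in shNTC (-1.11 ± 0.09, adjusted p = 1.09e-09), as was FAS, a death receptor (-1.43 ± 0.09, adjusted p = 1.27e-11). ZMAT3, an RNA-binding protein, was higher, like CDKN1A (1.27 ± 0.12, adjusted p = 1.37e-08). AEN, an exonuclease, and TP53I3 were called higher at both steps as CDKN1A was. AEN was at 1.12 ± 0.08 in shYAP+TAZ against shNTC (adjusted p = 7.26e-11) and 0.49 ± 0.06 in resistant against shYAP+TAZ (adjusted p = 5.91e-07), and TP53I3 at 1.26 ± 0.08 (adjusted p = 2.04e-11) and 0.16 ± 0.06 (adjusted p = 0.0385). Resistant against shYAP+TAZ had 9 of the 19 called higher and 5 lower (median 0.14), with GDF15, a secreted stress factor, at 1.18 ± 0.07 (adjusted p = 9.1e-12) and the death receptor TNFRSF10B at -1.21 ± 0.06 (adjusted p = 1.39e-13). Resistant against shNTC had 8 called higher and 8 lower (median -0.04). MDM2, AEN and TP53I3 are named here although the naming rule did not take them, after their values were seen.

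CDKN1B (p27, ENSG00000111276, chromosome 12, 12715058 to 12722371), in RPKM the most abundant CDK inhibitor RNA of the 10 in all 3 lines, fell and stayed low. It had 119.7, 113 and 123 CPM in resistant, 110.4, 121 and 117 CPM in shYAP+TAZ, and 188 and 197 CPM in shNTC libraries. Resistant and shYAP+TAZ libraries overlapped, and both lay under the 2 shNTC libraries. The log2 fold change was -0.73 ± 0.06 in shYAP+TAZ against shNTC (adjusted p = 2.18e-09), -0.70 ± 0.06 in resistant against shNTC (adjusted p = 3.94e-09) and 0.03 ± 0.06 in resistant against shYAP+TAZ (adjusted p = 0.665).

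CDKN2B (p15, ENSG00000147883, chromosome 9, 22002903 to 22009363), the INK4 inhibitor that TGF-beta is known to induce, had the largest change of the 10 in shYAP+TAZ. It had 46.0, 42.5 and 49.4 CPM in resistant, 120.1, 123 and 119.9 CPM in shYAP+TAZ, and 30.2 and 28.3 CPM in shNTC libraries. The shYAP+TAZ libraries were far above both other lines, and the resistant libraries were still above shNTC. The log2 fold change was 2.05 ± 0.08 in shYAP+TAZ against shNTC (adjusted p = 5.61e-15), a 4.14-fold difference. It was -1.39 ± 0.06 in resistant against shYAP+TAZ (adjusted p = 8.43e-14) and 0.66 ± 0.08 in resistant against shNTC (adjusted p = 2.28e-07). The CDKN2B promoter window (chr9:22009256-22009555, minus strand, GRCh38.p14) was the other one with the TEAD letters, beginning 199 bases before the start and printed in capitals.
CDKN2B promoter: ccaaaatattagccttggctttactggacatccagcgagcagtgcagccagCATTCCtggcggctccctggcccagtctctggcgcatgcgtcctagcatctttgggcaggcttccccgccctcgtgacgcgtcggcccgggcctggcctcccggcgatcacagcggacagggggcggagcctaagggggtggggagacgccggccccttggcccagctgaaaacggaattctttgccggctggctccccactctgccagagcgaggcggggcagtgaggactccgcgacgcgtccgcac

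The neighbours of CDKN2B on chromosome 9p21 were all expressed. CDKN2A, which encodes the INK4 inhibitor p16 and the p53 regulator ARF, had 116, 119.5 and 116 CPM in resistant, 184, 196 and 189 CPM in shYAP+TAZ, and 125 and 128.5 CPM in shNTC libraries. It changed in the same direction as CDKN2B by less, at 0.58 ± 0.06 in shYAP+TAZ against shNTC (adjusted p = 3.9e-08) and -0.70 ± 0.05 in resistant against shYAP+TAZ (adjusted p = 3.85e-10). MTAP, an enzyme of methionine salvage, did not rise with them: it averaged 103 ± 2.52 CPM in resistant (SD, n = 3), 235 ± 3.98 CPM in shYAP+TAZ (SD, n = 3) and 260.3 ± 4.03 CPM in shNTC libraries (SD, n = 2). MTAP was -1.19 ± 0.05 in resistant against shYAP+TAZ (adjusted p = 6.56e-14) and -0.14 ± 0.06 in shYAP+TAZ against shNTC (adjusted p = 0.0322). DMRTA1, a transcription factor gene, fell to 2.16 ± 0.663 CPM in resistant (SD, n = 3), against 4.87 ± 0.694 CPM in shYAP+TAZ libraries (SD, n = 3; -1.18 ± 0.18, adjusted p = 7.11e-06). CDKN2B-AS1, a non-coding RNA antisense to CDKN2B, had 9 to 15 counts in resistant, 12 to 20 in shYAP+TAZ and 23 to 31 in shNTC libraries. Of 16 tested genes within 1 Mb of CDKN2B, 9 were called lower and 2 higher in resistant against shYAP+TAZ (median log2 fold change -0.81), and 5 fell at least as far as CDKN2B. In shYAP+TAZ against shNTC 6 were called higher and 6 lower (median 0.20), and none rose as far as CDKN2B. The part of the regional shift in the lower CDKN2B of the resistant line was not tested.

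Around CCND3 a similar shift was measured. Of 36 tested genes within 1 Mb, 21 were called lower and 7 higher in resistant against shYAP+TAZ (median log2 fold change -0.39). Of the 36, 7 fell at least as far as CCND3. In resistant against shNTC 24 of the 36 were called lower and 3 higher (median -0.45), while CCND3 itself was not called (0.03 ± 0.06). Around CCND1, in contrast, 6 of 23 tested genes were called lower and 7 higher in resistant against shYAP+TAZ. The median of the 23 was -0.13, and none fell as far as CCND1. In shYAP+TAZ against shNTC 7 of 26 tested neighbours of CDKN1A and 4 of 22 of CDKN1B moved at least as far in the same direction. So did 3 of 50 for CDK2 and 11 of 32 for CDK4, which was itself not called. For CDKN1A, CDKN1B, CDK2 and CDK4 in that order, the counts were 3, 11, 9 and 5 in resistant against shYAP+TAZ. In resistant against shNTC they were 2, 1, 14 and 6. The part of position in these results was not tested.

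The 3 inhibitors among the 10 together were 61.3 to 64.4 RPKM in resistant, 75.2 to 79.7 RPKM in shYAP+TAZ, and 78.8 and 82.2 RPKM in shNTC libraries. Other inhibitors were left out, among them CDKN2A, at 36.95 to 38.6, 57.5 to 61.6, and 38.9 and 40.4 RPKM in the same order. CDKN2D, also left out, had 25 to 28.2, 16.0 to 16.6, and 28.75 and 27.3 RPKM. The order of the lines in the sum therefore holds for these 3 genes only. This sum of 3 genes hid their exchange: CDKN2B averaged 11.6 RPKM in resistant, 29.7 RPKM in shYAP+TAZ and 7.16 RPKM in shNTC libraries, while CDKN1B averaged 45.2, 43.3 and 71.5 RPKM in the same order. The share of CDKN1A in the Cip/Kip pair was 10.8% to 14.0% in resistant, 8.58% to 10.3% in shYAP+TAZ, and 2.78% and 2.32% in shNTC libraries.

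Among the 5 inhibitors and D-type cyclins outside the 10 (CCND2, CDKN1C, CDKN2A, CDKN2C and CDKN2D), 2 were called higher and 3 lower both in shYAP+TAZ against shNTC and in resistant against shYAP+TAZ. The resistant line against shNTC had 1 called higher and 2 lower. CDKN1C (p57), the third Cip/Kip inhibitor, had 2.36, 3.36 and 4.72 CPM in resistant, 11.7, 12.1 and 9.56 CPM in shYAP+TAZ, and 1.08 and 0.882 CPM in shNTC libraries. It thus peaked in shYAP+TAZ like CDKN2B (3.51 ± 0.24 against shNTC, adjusted p = 8.89e-11). The INK4 inhibitors CDKN2C (p18) and CDKN2D (p19) went the opposite way. CDKN2C was -1.12 ± 0.11 in shYAP+TAZ against shNTC (adjusted p = 2.25e-08) and 0.64 ± 0.11 in resistant against shYAP+TAZ (adjusted p = 2.47e-05). CDKN2D was -0.79 ± 0.08 (adjusted p = 1.37e-08) and 0.70 ± 0.07 (adjusted p = 2.31e-08) in the same comparisons.

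**Figure D3:**
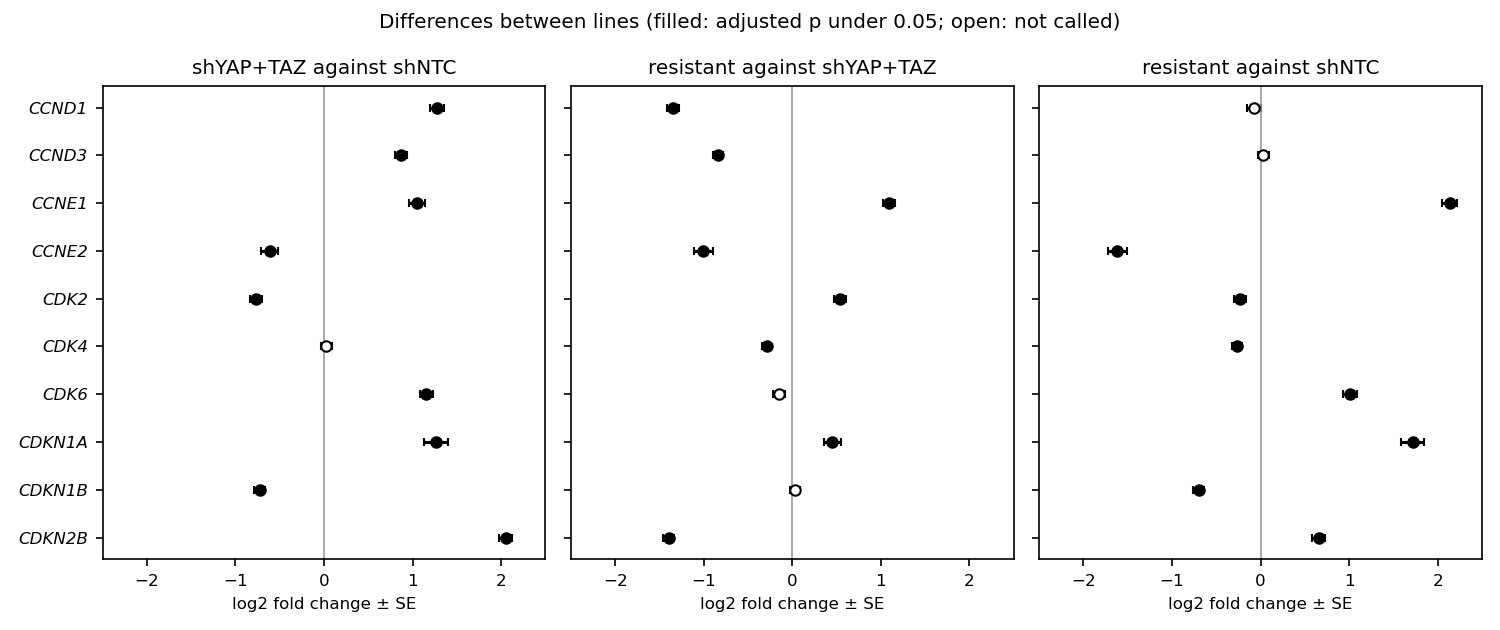
Log2 fold change ± SE (horizontal axis) of the 10 genes in shYAP+TAZ against shNTC, resistant against shYAP+TAZ and resistant against shNTC; filled points have an adjusted p under 0.05 and open points do not. CDKN2B at 2.05 is farthest right in the first panel and CCNE1 at 2.14 in the last, where CCND1 and CCND3 lie at zero.

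Set in order of mean RPKM, the genes ranked differently in each line. In resistant libraries the order was CCND1 (78.1 RPKM), CDK4 (53.6), CDKN1B (45.2), CCNE1 (30.6), CCND3 (28.6), CDK2 (22.1), CDKN2B (11.6), CDK6 (9.92), CDKN1A (6.29) and CCNE2 (2.35). Only CCNE1 and CCND3 overlapped between libraries among neighbours in that order. In shYAP+TAZ libraries it was CCND1 (194 RPKM), CDK4 (64.0), CCND3 (50.0), CDKN1B (43.3), CDKN2B (29.7), CDK2 (14.9), CCNE1 (14.0), CDK6 (10.7), CCNE2 (4.58) and CDKN1A (4.47). There CDK2 overlapped with CCNE1, and CCNE2 with CDKN1A. In shNTC libraries it was CCND1 (79.8 RPKM), CDKN1B (71.5), CDK4 (62.7), CCND3 (27.3), CDK2 (25.3), CDKN2B (7.16), CCNE2 (6.998), CCNE1 (6.80), CDK6 (4.80) and CDKN1A (1.87). There CCND1 overlapped with CDKN1B, and CDKN2B, CCNE2 and CCNE1 with each other. CCNE1 thus ranked 4 of 10 in resistant libraries, against 8 of 10 in shNTC.

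Over both steps, shYAP+TAZ against shNTC and resistant against shYAP+TAZ, CCND1, CCND3 and CDKN2B were called higher and then lower, as were 15.7% of all tested genes. CCNE1 and CDKN1A were called higher at both steps, as were 5.76% of all tested genes, and CCNE2 was called lower at both, as were 6.3%. CDK2 was called lower and then higher, as were 15% of all tested genes. The 2 steps share the shYAP+TAZ libraries, so a gene's 2 values are not independent and the shares are a description.

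The genes with the most alike profiles were sought among 10142 other protein-coding genes with a mean of at least 5 CPM, by the root mean square distance of centred log2 CPM over the 8 libraries. For CCND1 these were SLC12A2 (0.07), NFIX (0.07) and NOTCH1 (0.10), and for CDKN2B SPON1 (0.07), CYP1B1 (0.08) and HIST1H2BD (0.15). For CCNE1 they were CMTM6 (0.09), TMC7 (0.09) and G0S2 (0.09), and for CCNE2 SLC2A8 (0.11), DCUN1D3 (0.12) and CHST4 (0.12). For CDKN1A, CATSPER1 (0.09) and the p53 target AEN (0.10) were nearest. The 8 libraries fall into 3 lines, so many genes share each profile.

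The surrounding machinery was then counted in fixed gene lists. Beside these counts, and the list and neighbour counts above, stands the share of all tested genes called. It was 60.7% in shYAP+TAZ against shNTC, 62.4% in resistant against shYAP+TAZ and 62.7% in resistant against shNTC, split about evenly by direction. A count near these shares marks nothing particular to a list. RB1, the brake that G1 kinases release, averaged 173 CPM in resistant, 200.5 CPM in shYAP+TAZ and 139 CPM in shNTC libraries, and was higher in shYAP+TAZ than in shNTC by 0.53 ± 0.06 on the log2 scale (adjusted p = 1.24e-07). Its values are given because G1 kinases act on it, although the naming rule did not take it. Of 13 genes of the RB family, the E2F factors and their DP partners, 4 were called higher and 7 lower in shYAP+TAZ against shNTC (median log2 fold change -0.28). E2F1, an activator of replication genes, was higher (0.81 ± 0.08, adjusted p = 1.02e-08), and E2F7, a repressor of the family, was lower (-0.80 ± 0.08, adjusted p = 1.28e-08). Resistant against shYAP+TAZ had 2 called higher and 6 lower (median -0.11), led by E2F5 (-0.93 ± 0.07, adjusted p = 5.35e-10), which binds RB-like pocket proteins. The resistant line against shNTC had 4 called higher and 7 lower (median -0.43).

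Of 16 E2F target genes of the G1/S transition, 2 were called higher and 13 lower in shYAP+TAZ against shNTC (median log2 fold change -0.57). Beside them CCNE1, CCND1 and CCND3 were higher, while CCNE2 (-0.61) and CDK2 (-0.77) were lower. RRM2, a subunit of ribonucleotide reductase, was at -1.50 ± 0.06 (adjusted p = 4.77e-14), and MCM6, a helicase subunit, was the largest exception (0.63 ± 0.07, adjusted p = 4.17e-08). Between resistant and shYAP+TAZ the E2F target genes split, 6 higher and 6 lower (median -0.09). TK1, thymidine kinase, was at 0.91 ± 0.06 (adjusted p = 1.25e-11) and MCM4, another helicase subunit, at -0.80 ± 0.05 (adjusted p = 6.14e-11). In resistant against shNTC 1 was called higher and 12 lower (median -0.43), so 4.39-fold more CCNE1 RNA stood beside lower RNA of most of these replication genes. CCNE2 (-1.62) and CDK2 (-0.23) were lower in that comparison too.

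Most genes of the later cycle were lower in shYAP+TAZ than in either other line. All 6 tested S phase and mitotic cyclin genes with CDK1 were called lower in shYAP+TAZ against shNTC (median log2 fold change -2.04), and 5 of 6 were called higher in resistant against shYAP+TAZ (median 1.60). CCNA2 (cyclin A2), the S phase partner of CDK2, averaged 151 ± 4.002 CPM in resistant (SD, n = 3), 47.2 ± 1.07 CPM in shYAP+TAZ (SD, n = 3) and 138 ± 5.83 CPM in shNTC libraries (SD, n = 2). In resistant against shNTC none of the 6 was called higher and 3 were called lower (median -0.35). At an unadjusted edgeR p under 0.05 CCNA2 alone counted as higher there (log2 fold change 0.13, adjusted p = 0.0648), and every other list count of none given here stayed at none. The 10 proliferation markers of G2 and mitosis were all called lower in shYAP+TAZ against shNTC (median -1.97) and all called higher in resistant against shYAP+TAZ (median 1.64). In resistant against shNTC 2 were called higher and 5 lower (median -0.19), with FOXM1, a transcription factor of mitotic genes, at -1.44 ± 0.07 (adjusted p = 2.87e-13) and CDC20, an activator of the anaphase ubiquitin ligase, at 0.65 ± 0.06 (adjusted p = 4.9e-09). These cycle genes differ strongly in both comparisons with shYAP+TAZ, beside the differences of the 10 genes there, and their part in those differences was not tested. Between resistant and shNTC, where CCNE1 and CDKN1A were higher, CCNF, CDK1 and CCNB1 were called lower. CCNA2 and CCNB2 (cyclin B2, 0.02 ± 0.07, adjusted p = 0.856) were not called. The part of cycle genes in the CCNE1 and CDKN1A differences was not tested there either.

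A further list held 9 genes whose products activate, restrain or assist CDKs. None of the 9 was called higher and 7 were called lower in shYAP+TAZ against shNTC (median log2 fold change -0.33). In resistant against shYAP+TAZ 6 were called higher and none lower (median 0.32), and in resistant against shNTC 3 were called higher and 3 lower. CDC25C, a phosphatase that activates CDK1, was at -2.31 ± 0.08 in shYAP+TAZ against shNTC (adjusted p = 3.76e-15) and 1.39 ± 0.08 in resistant against shYAP+TAZ (adjusted p = 4.63e-12). CCNH, the cyclin of the CDK-activating kinase, was at -0.82 ± 0.08 (adjusted p = 9.23e-09) and 0.47 ± 0.07 (adjusted p = 7.13e-06) in the same comparisons.

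Counted next were 12 genes for ubiquitin ligase parts and a deubiquitinase that act on G1 cyclins or Cip/Kip inhibitors. Of these, 3 were called higher and 5 lower in shYAP+TAZ against shNTC, 3 and 7 in resistant against shYAP+TAZ, and 3 and 6 in resistant against shNTC. Of all tested genes, 60.7%, 62.4% and 62.7% were called in the same order. SKP2, the adaptor that marks p27 for destruction, averaged 65.1 ± 1.75 CPM in resistant (SD, n = 3), 92.2 ± 2.63 CPM in shYAP+TAZ (SD, n = 3) and 113 ± 1.69 CPM in shNTC libraries (SD, n = 2). It was lower in resistant than in shNTC by -0.79 ± 0.06 on the log2 scale (adjusted p = 4.8e-10), as was CDKN1B itself. DTL, an adaptor for the destruction of p21, was -1.26 ± 0.07 in the same comparison (adjusted p = 2.51e-12), while CDKN1A was higher. Protein levels were not measured here. USP28, a deubiquitinase, was higher in resistant than in shNTC (0.64 ± 0.07, adjusted p = 5.83e-08).

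The last of these lists held 7 genes of the DREAM and MuvB complexes, which bind cell cycle promoters, or of a kinase acting on them (DYRK1A). None of the 7 was called higher and 4 were called lower both in shYAP+TAZ against shNTC and in resistant against shNTC. In resistant against shYAP+TAZ 2 were called higher and 1 lower, the kinase gene DYRK1A (-0.18 ± 0.07, adjusted p = 0.0431). MYBL2, the activating partner of MuvB, averaged 113 ± 3.56 CPM in resistant (SD, n = 3), 44.9 ± 1.92 CPM in shYAP+TAZ (SD, n = 3) and 214 ± 19.6 CPM in shNTC libraries (SD, n = 2).

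**Figure D4:**
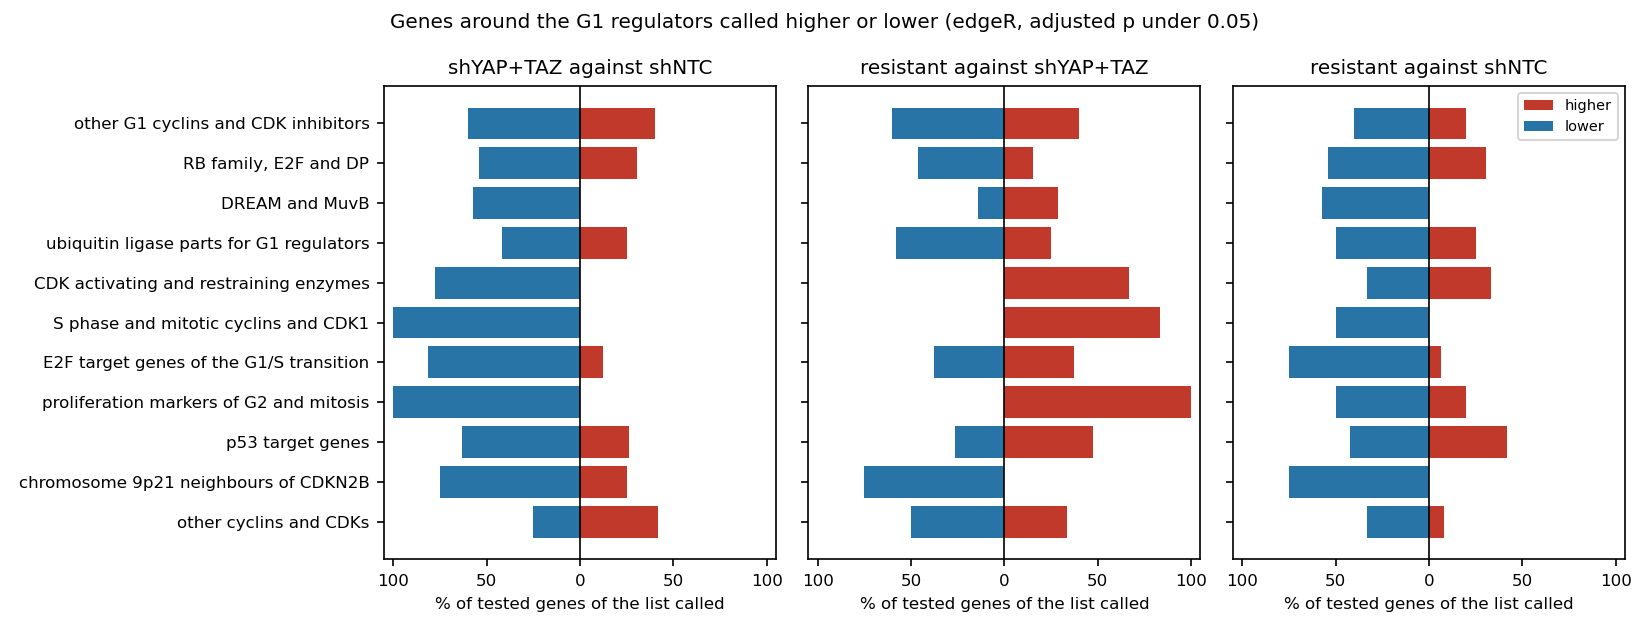
Share of the tested genes of each of 11 lists called higher (right, red) or lower (left, blue) at an edgeR adjusted p under 0.05, in % (horizontal axis), in shYAP+TAZ against shNTC, resistant against shYAP+TAZ and resistant against shNTC. The 10 proliferation markers are all lower in the first panel and all higher in the second.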

How the data were processed

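RNA sequencing of 8 libraries was analysed. The deposited raw counts are whole numbers per Ensembl gene, and the RPKM values were computed by the authors and deposited as a second table; each equalled the count over the column total and 1 constant per gene within a relative deviation of 8.5e-07. Per the submitters' processing notes, the tools were GSNAP and limma and the genome build was GRCh38.p10. The counter, annotation and strand setting are not given in the sources used here. Symbols and positions came from GENCODE 29 and promoters from RefSeq.

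Counts were tested with edgeR 4.0.16 in R 4.3.3: TMM factors, filterByExpr, 1 quasi-likelihood fit of all 8 libraries by group, two-sided, Benjamini-Hochberg over 16256 genes. CPM carried TMM factors, and log2 CPM used a prior count of 2. Levels between genes were compared in RPKM. The fit was also run on simulated counts in which few genes were changed. Most genes were called in the real data, so that run does not show how the fit performs there.

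The members and lists were chosen with earlier results of these data known. From each of 11 lists (115 genes), the genes named come from the 3 largest called changes per comparison at 1 CPM or more, plus the largest against the majority; all of the 9p21 list and all members were taken. The search of neighbours within 1 Mb was added after seeing the data. Tried in place of these were DESeq2 1.42.0, limma-voom and limma-trend (limma 3.58.1), upper-quartile and RLE scaling, 2 other filters, 2-group fits, a replicate block and each library left out.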

Additional observations from a re-analysis of the deposited data

How the results depend on the processing

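The counts of members called were the same or differed by 1 under 18 alternative settings: 6 higher and 3 lower in shYAP+TAZ against shNTC, 3 higher and 5 to 6 lower in resistant against shYAP+TAZ, and 4 higher and 4 to 5 lower in resistant against shNTC. The direction turned only for members that were not called, when 1 library was left out. Over the libraries left out, CCND1 in resistant against shNTC ranged from -0.24 to 0.13, turning without shNTC replicate 1, and CCND3 from -0.049 to 0.13, turning without shNTC replicate 2. CDKN1B in resistant against shYAP+TAZ ranged from -0.0071 to 0.068, turning without shYAP+TAZ replicate 1, and CDK4 in shYAP+TAZ against shNTC from -0.015 to 0.060, turning without shNTC replicate 2. The cause was not tested beyond the library left out. The calls gained were CDK6 and CCND1, given above.

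Leaving out single libraries moved the difference in the log2 ratio of CCND1 to CCND3 between -0.19 and -0.00291 in resistant against shNTC, and between 0.32 and 0.50 in shYAP+TAZ against shNTC. For CCNE1 to CCNE2 in shYAP+TAZ against shNTC it ranged from 1.56 to 1.76.

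Libraries with the same replicate number deviated from their group means with correlations of -0.10 to 0.11, so the numbers do not pair them. With a replicate block, 4568 genes were called higher and 4613 lower in shYAP+TAZ against shNTC, and no member's call changed in any comparison. Other scalings moved the median of all genes by at most 0.06 on the log2 scale. Depth limits mainly CDKN1A and CCNE2, the members with the fewest counts.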

Other observations

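Of 12 cyclins and CDKs outside the G1 and mitotic engines, 5 were called higher and 3 lower in shYAP+TAZ against shNTC, where 60.7% of all tested genes were called. For resistant against shYAP+TAZ these counts were 4 and 6, beside 62.4% of all tested genes, and for resistant against shNTC 1 and 4, beside 62.7%. CDK8, a kinase of the Mediator complex, averaged 55.5 ± 2.596 CPM in resistant (SD, n = 3), 47.4 ± 0.765 CPM in shYAP+TAZ (SD, n = 3) and 15.1 ± 0.35 CPM in shNTC libraries (SD, n = 2), and was higher in resistant than in shNTC by 1.88 ± 0.08 on the log2 scale (adjusted p = 2.55e-14). Like CDK6, it was thus well above shNTC in both hairpin-carrying lines. CCNY (cyclin Y) averaged 143 ± 6.45 CPM in resistant, 302 ± 6.59 CPM in shYAP+TAZ and 158 ± 4.55 CPM in shNTC libraries (SD, n = 3, 3 and 2), a rise in shYAP+TAZ (0.94 ± 0.06, adjusted p = 3.92e-11) and a fall in resistant against shYAP+TAZ (-1.08 ± 0.05, adjusted p = 5.22e-13), as for CCND1. CCNI (cyclin I) averaged 97.2 ± 3.79 CPM in resistant, 43.1 ± 2.66 CPM in shYAP+TAZ and 171 ± 0.502 CPM in shNTC libraries, and was lower in shYAP+TAZ than in shNTC (-1.98 ± 0.07, adjusted p = 1.07e-15). CDK9, the kinase that releases paused RNA polymerase, was lower in resistant than in shYAP+TAZ (-1.18 ± 0.06, adjusted p = 1.97e-12).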
